A study of Mus musculus with 6 samples.

Results

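The genes described here encode the proteasome, the protease complex that degrades ubiquitin-tagged proteins, together with the proteins that assemble and regulate it. They were measured by single-cell RNA sequencing of CD11b+ marrow cells from the mandible and the femur of the mouse. The members were all gene symbols that start with Psma, Psmb, Psmc, Psmd, Psme, Psmf or Psmg and continue with a digit, which gave 50 of the 32285 genes in the count matrices. They were 7 alpha and 7 beta subunits of the core particle, 3 immunoproteasome subunits (Psmb8, Psmb9 and Psmb10), 2 core subunits of restricted tissues (Psma8 of the testis and Psmb11 of the thymus), 6 ATPases and 3 other subunits of the base, 8 subunits of the lid, 5 activators, 1 inhibitor (Psmf1), 4 chaperones of core assembly and 3 chaperones of base assembly. The remaining symbol, Psmc3ip, belongs to a recombination factor and to no proteasome subunit. Psme2b is a near-copy of Psme2, so reads of these genes may have been assigned to either.

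The core particle is a barrel of stacked alpha and beta rings. The alpha rings gate the entry, and the beta subunits Psmb5, Psmb6 and Psmb7 carry the proteolytic sites. The regulatory particle sits on the end of the barrel, where the lid removes ubiquitin and the ATPases of the base unfold the substrate. In leukocytes, and in most cells after exposure to interferon gamma, Psmb8 takes the place of Psmb5, Psmb9 that of Psmb6 and Psmb10 that of Psmb7, and the resulting immunoproteasome produces peptides for class I antigen presentation. Psme1 and Psme2 form an alternative cap that interferon also induces, whereas Psme3 and Psme4 form separate, mostly nuclear caps.

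Cells were selected with CD11b magnetic beads (CD11b is an integrin chain of neutrophils, monocytes and macrophages) from 3 Femur and 3 Mandible samples of untreated 2-month-old mice labelled C57Bl/6. Femur replicate 1 was female and the other 5 samples were male, so sex could not be separated from that library. The labels describe marrow flushed from femurs and tibiae, the study's methods name the femur alone, and for the mandible the molars were extracted and their sockets flushed, after which the condylar and incisal ends were removed and the marrow space was flushed. The number of mice behind a sample was not given, so p-values measure the spread between these samples, which may be technical.

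The authors' metadata kept 69776 of 74091 barcodes and divided them into 9 clusters, numbered 0 to 8. Kept cells held between 82962160 and 244946998 UMIs (counted RNA molecules) per library, and between 15 and 70 barcodes were shared by any pair of libraries. Cluster 4 carried the neutrophil precursor genes Elane, Mpo, Prtn3 and Fcnb at a summed 3616 CPM (UMIs of a gene per 1000000 UMIs of the library and cluster), cluster 0 the immature neutrophil genes Ltf, Ngp and Camp, clusters 1 to 3 the mature neutrophil genes Il1b, Retnlg, Mmp8 and Csf3r, cluster 5 the monocyte genes Csf1r, Ccr2, Ly6c2 and Fn1 at 3024 CPM, cluster 6 the B-lineage genes, cluster 7 a high mitochondrial share and cluster 8 haemoglobin genes. Clusters 6, 7 and 8 were small, with as few as 39, 94 and 11 cells in a library. Ltf, Ngp and Camp summed to between 11805 and 30978 CPM in cluster 5, most of all in Femur replicate 3, so neutrophil RNA was counted among the monocyte-like cells too, and its part in the results below was not tested.

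Promoter sequence is shown for Psmb5 and Psmb6, of the proteolytic subunits that the immunoproteasome replaces. Psmb8 and Psmb9 had no stretch outside annotated exons within the 100 bases before the start, so theirs is not shown. In the RefSeq promoter table (GRCm38.p6), 42 of the 50 members had an entry. The letters TGACNNNGC, the core of the antioxidant element through which the factor Nfe2l1 is known to raise proteasome genes, stood on either strand within the 250 bases before the start in 5 members (Psmb5, Psmb6, Psmc6, Psmd12 and Psmd9) and in 10.2% of all 32851 promoters. Capitals mark this motif. The Psmb5 stretch is chr14:54618023-54618095 on the minus strand and the Psmb6 stretch chr11:70525257-70525356 on the plus strand, each lying before the annotated start.
Psmb5: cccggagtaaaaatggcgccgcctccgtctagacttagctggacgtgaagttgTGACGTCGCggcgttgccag
Psmb6: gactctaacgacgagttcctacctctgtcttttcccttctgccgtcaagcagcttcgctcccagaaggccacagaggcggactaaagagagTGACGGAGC

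The letters CCAAT stood in 15 members (33.8% of all promoters). These counts describe letters and not bound sites. On the GENCODE annotation of mm10 the Psmb8 gene lies at chr17:34197721-34201454 on the plus strand and Psmb9 at chr17:34181987-34187764 on the minus strand, where it overlaps Tap1, the peptide transporter gene, on the opposite strand. Psmb5 spans chr14:54614119-54618022 on the minus strand and Psmb6 chr11:70525367-70527858 on the plus strand. Across the members, 10 overlapped another gene on the same strand and 19 one on the other strand, so that some of their reads may belong to a neighbour.

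The first question was how proteasome transcripts were spread over the cell populations. They were scarcest in mature neutrophils and most abundant in the monocyte-like and B-lineage-like clusters. The 50 members together took 0.299% of all UMIs in the neutrophil precursors of cluster 4 (0.283% to 0.330% over the 6 libraries), 0.195% in cluster 0 and 0.142% to 0.150% in clusters 1 to 3, whereas they took 0.440% in cluster 5 (0.402% to 0.520%) and 0.450% in cluster 6 (0.358% to 0.543%). The libraries of clusters 1 to 3 (at most 0.180%) did not overlap those of cluster 4, and those of cluster 4 did not overlap those of cluster 5. The authors built the clusters from the same cells and genes, so these values and the ratios that follow are descriptions without a test. A CPM value compares one gene between cells and is not used here to rank different genes.

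**Figure D1:**
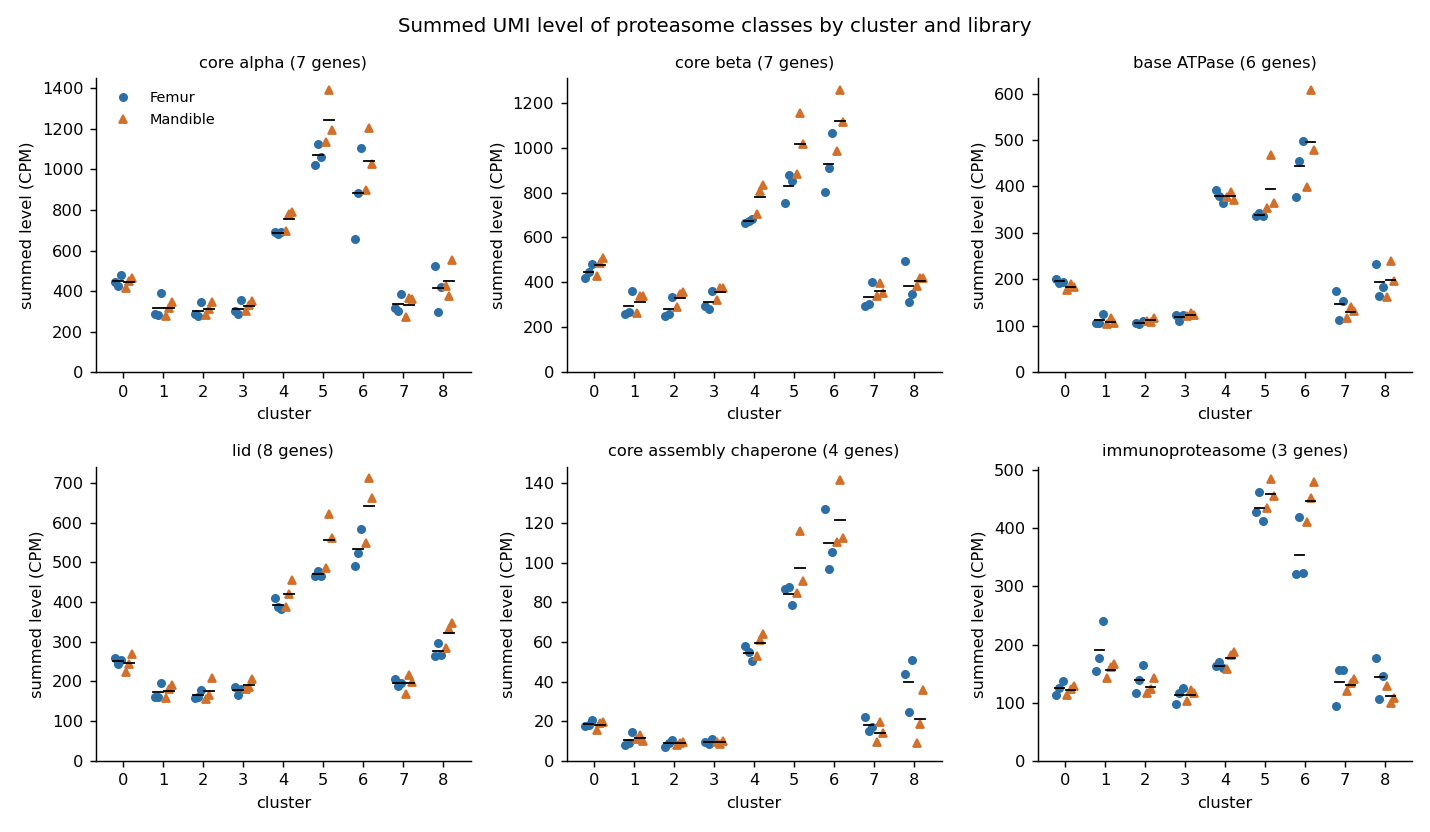
Summed level (CPM, vertical axis) of 6 classes of proteasome genes in clusters 0 to 8 (horizontal axis), with 1 point per library (circles Femur, triangles Mandible) and a bar at each site's mean. The core, ATPase, lid and assembly chaperone classes are lowest in clusters 1 to 3 and higher in clusters 4 to 6. The immunoproteasome subunits stand at 174 CPM in cluster 1 and 170.1 CPM in cluster 4, but at 123 CPM in cluster 0 and 133 CPM in cluster 2.

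Between the precursors of cluster 4 and the mature neutrophils of cluster 1, nearly every class was lower in the mature cells. Of the 45 members with a mean of 10 CPM or more in cluster 4, 40 were lower in cluster 1 in all 6 libraries and 1 was higher in all 6. The median of the cluster 1 to cluster 4 ratio was 0.382 over these members and 0.810 over the 6626 genes that met the same limit, of which 50.3% were lower in all 6 libraries. The limit was set in cluster 4, so a member high there alone was bound to be lower in cluster 1. The clusters also differed in depth, with a library's median of 17937 to 23203 UMIs per cell in cluster 4 and 3827 to 6153.5 UMIs per cell in cluster 1, and the part of depth was not tested. Cluster 4 cells were also nearly all called S or G2M (97.8% to 99.3% of a library's cells), and the part of phase in any ratio to cluster 4 was not tested. The class medians were 0.295 for the 6 ATPases, 0.360 for the 8 lid subunits, 0.392 for the 7 alpha subunits and 0.394 for the 7 beta subunits. Summed over the class, the alpha subunits held 722 ± 49.7 CPM in cluster 4 (SD, n = 6) and 316 ± 44.6 CPM in cluster 1, and the ATPases 379 CPM and 111 CPM. Over the members together, though not in every class, cluster 0 lay between them, with a median ratio to cluster 4 of 0.597 over 45 members against 0.915 over 6684 genes.

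The chaperones of core assembly had the lowest class median, 0.142, over 3 of their 4 members, since Psmg3, at a mean of 9.98 CPM in cluster 4 and 5.85 CPM in cluster 1, lay under the limit of 10 CPM. Psmg2, which pairs with Psmg1 to arrange the alpha ring, counted 18.7, 16.3 and 16.3 CPM in the femur libraries of cluster 4 and 17.1, 16.6 and 18.1 CPM in the mandible libraries, and in cluster 1 it held 0.412, 0.455, 0.867, 0.351, 0.751 and 1.20 CPM. The libraries of the 2 clusters were apart, with a median ratio of 0.0366 (0.0205 to 0.0662). Psmg4 had a ratio of 0.142 and Psmg1 of 0.150, and Psmd9, a chaperone of the base, one of 0.175. Psmc3ip, the recombination factor, had a ratio of 0.0538. Among the subunits of the core, base and lid other than the immunoproteasome, the lowest were Psmc3, an ATPase (0.186), and Psmd7 and Psmd6, of the lid (0.189 and 0.214), and the highest were Psmd4, a ubiquitin receptor of the base (0.881), and Psmd8, of the lid (0.727).

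Psme4, the activator known from DNA repair and sperm development, was the member higher in cluster 1 in all 6 libraries. It counted 53.6, 41.1 and 41.1 CPM in the femur libraries of cluster 4 and 43.1, 40.4 and 47.1 CPM in the mandible libraries, and 126, 126 and 103 CPM followed by 117, 104 and 122 CPM in cluster 1. Its libraries did not overlap and the median ratio was 2.58. Psme1 and Psme2, the interferon-induced cap, were closer to their precursor level, at ratios of 0.693 and 0.665.

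**Figure D2:**
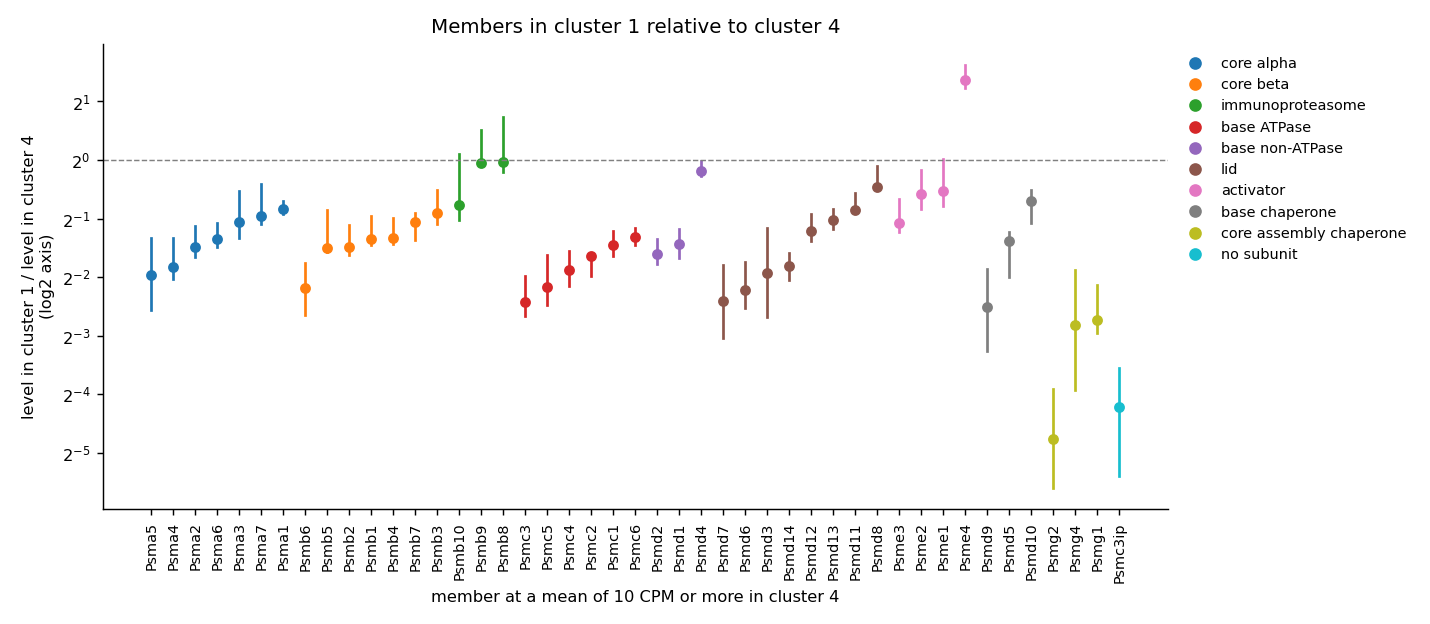
Level in cluster 1 divided by level in cluster 4 (log2 vertical axis) for the 45 members at a mean of 10 CPM or more in cluster 4, coloured by class. Points are medians of 6 libraries and lines run from the lowest to the highest library, and most members lie under 1 whereas Psmb8 and Psmb9 lie near 1 and Psme4 above it.

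Psmb8 and Psmb9 did not follow the subunits they replace. None of the 3 immunoproteasome subunits was lower in cluster 1 than in cluster 4 in all 6 libraries. In cluster 0, by contrast, 3 of 3 were lower than in cluster 4 in all 6 libraries, at a class median ratio of 0.739. Their summed level was 123 CPM in cluster 0, 174 CPM in cluster 1 and 133 CPM in cluster 2. Psmb8 counted 76.9, 80.0 and 76.4 CPM in the femur libraries and 76.8, 96.4 and 90.9 CPM in those of the mandible of cluster 4. In cluster 1 it counted 78.6, 95.7 and 127.6 CPM in the femur libraries and 71.8, 83.3 and 82.1 CPM in those of the mandible. These ranges overlapped, at a median ratio of 0.979 (0.864 to 1.67), and Psmb9 had one of 0.967 (0.942 to 1.42). The Psmb8 median pools both sites, since Psmb8 was higher in cluster 1 than in cluster 4 in each femur library and lower in each mandible library. Whether this ratio differed between sites was not tested. Psmb10 had a ratio of 0.590 (0.492 to 1.08) and was lower in 5 of 6 libraries. Psmb5 stood at a mean of 102.6 CPM in cluster 4 and 39.6 CPM in cluster 1 (ratio 0.354, at most 0.550 in a library), and Psmb6 at 79.2 CPM and 18.3 CPM (ratio 0.219, at most 0.295). Psmb10 was scarce in every neutrophil cluster, with means of 6.12 to 15.4 CPM in clusters 0 to 4.

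Cluster 5, the monocyte-like cells, held more of nearly every member than the immature neutrophils of cluster 0. Of 39 members at 10 CPM or more in cluster 0, 38 were higher in cluster 5 in all 6 libraries, with a median ratio of 1.99 against 1.38 over 5840 genes, of which 64.8% were higher in all 6. The highest ratios were those of Psmb10, Psmb8 and Psma7. Psmb10 counted 92.8, 94.7 and 79.9 CPM in the femur libraries and 88.6, 105 and 110.4 CPM in those of the mandible of cluster 5, against at most 14.3 CPM in cluster 0, a median ratio of 8.26. The Psmb8 ratio was 4.23 and the Psmb9 ratio 2.15. Psma7, an alpha subunit, counted 375, 428 and 399 CPM in the femur libraries and 438, 549 and 462 CPM in those of the mandible of cluster 5, and its ratio to cluster 0 was 4.17.

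Measured against the precursors of cluster 4, the monocyte-like cells had a median ratio of 1.23 over 45 members, of which 28 were higher in all 6 libraries, and of 1.32 over all 6683 genes, of which 62.3% were higher in all 6. The ATPases stood at a median ratio of 0.976 and the base chaperones at 1.01, with 1 of 6 and 1 of 3 members higher in all 6 libraries. The beta subunits stood at 1.16, the alpha subunits at 1.56, the activators at 2.13 and the immunoproteasome subunits at 2.96, where 3 of 3 were higher in all 6 libraries, at ratios of 2.96 for Psmb8, 1.53 for Psmb9 and 6.42 for Psmb10. The B-lineage-like cells of cluster 6 resembled cluster 5 in the summed level, with a median ratio of 1.14 over 46 members, 10 of them higher in all 6 libraries, against 1.06 over 7677 genes, of which 30.1% were higher in all 6. Psma7 was lower there (ratio 0.472), and the core assembly chaperones had a class median of 1.52, with 2 of 3 higher in all 6 libraries.

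The tissue-restricted members were at the limit of detection. Psma8 gave 88 UMIs and Psmb11 gave 23 UMIs in all kept cells, and Psmb11 was at 0 in every library of clusters 6 and 7. Psmf1, an inhibitor of the core in vitro, averaged 3.02 to 7.53 CPM in clusters 0 to 4 and 13.3 CPM in cluster 5.

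Because Psmb8 and Psmb5 compete for the same place in the core, the share Psmb8 / (Psmb8 + Psmb5) was computed from summed UMIs, as were Psmb9 / (Psmb9 + Psmb6) and Psmb10 / (Psmb10 + Psmb7). The genes of a pair may be captured with unlike efficiency, so a share compares cells and does not give the composition of particles. In cluster 4 the Psmb8 share was 46.9%, 46.6% and 44.1% in the femur libraries and 45.4%, 44.2% and 41.8% in the mandible libraries. In cluster 1 it was 72.9%, 74.4% and 70.6% in the femur libraries and 69.0%, 66.7% and 62.9% in the mandible libraries. Every library of cluster 1 lay above every library of cluster 4. In cluster 5 the Psmb8 share ran from 63.9% to 74.8%, close to that of cluster 1, although the Psmb8 level was 241 CPM there against 89.8 CPM.

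The Psmb9 share lay between 43.7% and 51.4% in cluster 4 and between 73.5% and 86.3% in cluster 1. In cluster 5 it was 47.8% to 59.8%, which did not reach the range of cluster 1. The Psmb10 share behaved otherwise, at 12.2% to 29.0% over all libraries of clusters 0 to 4, 53.1% to 61.4% in cluster 5 and 42.4% to 58.8% in cluster 6. The high Psmb8 and Psmb9 shares of mature neutrophils thus came with a low Psmb10 share, whereas cluster 5 was high in Psmb8 and Psmb10 shares.

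**Figure D3:**
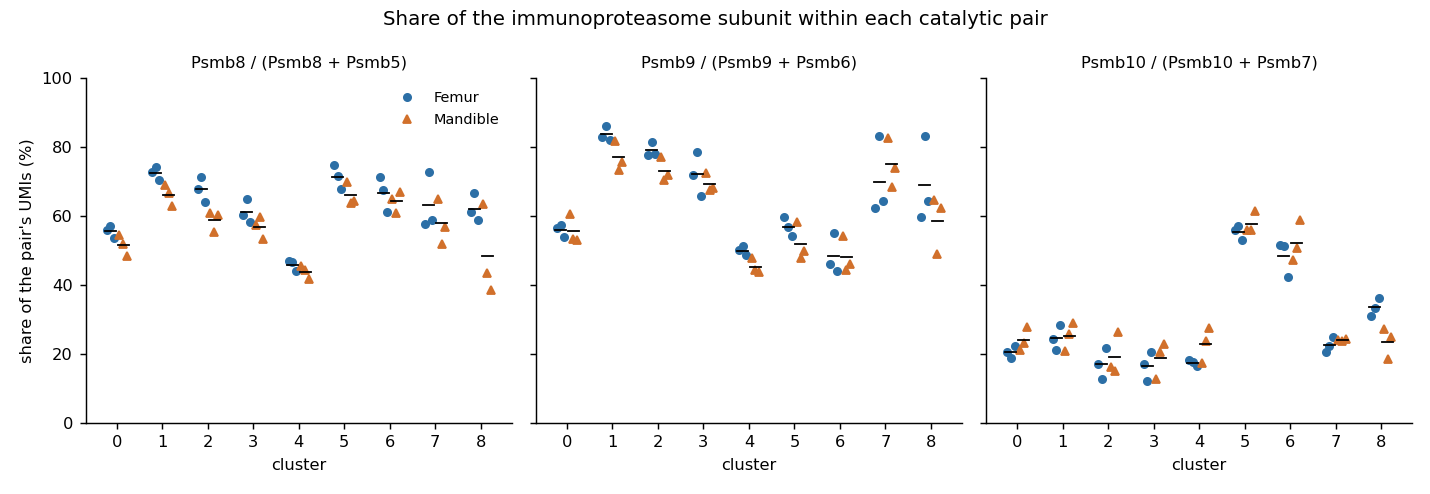
Share of the immunoproteasome subunit in the UMIs of its catalytic pair (percent, vertical axis) in clusters 0 to 8 (horizontal axis), with 1 point per library (circles Femur, triangles Mandible) and a bar at each site's mean. The Psmb8 and Psmb9 shares of every library are higher in cluster 1 than in cluster 4, the Psmb10 share is above 42% in clusters 5 and 6 alone, and the points of cluster 8 rest on as few as 6 UMIs.

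The reference labels in the authors' metadata divide cluster 5 further. Labels held by 20 or more cells of a library are described here, again with no test. Cells labelled monocytes (488 to 772 per library) held a median of 332 CPM of Psmb8 and 650.2 CPM of Psma7. The few cells labelled dendritic (22 to 40 in 5 libraries), which carried Cd74, the class II chaperone, at 16444 CPM, held 490.5 CPM of Psmb8 (377 to 609 CPM) and 501 CPM of Psme1, but 399 CPM of Psma7. Their Psmb8 share was 83.5% (72.8% to 86.6%), against 69.4% (64.3% to 76.2%) in monocyte-labelled cells. Macrophage-labelled cells, with C1qa at 3387 CPM, held 176 CPM of Psmb8 and 263 CPM of Psma7 at a Psmb8 share of 73.4%. Cells labelled neutrophils within cluster 5 held 151 CPM of Psmb8, with Ltf at 5423 CPM.

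The genes whose level over 48 sums (6 libraries by clusters 0 to 7) was most like that of Psmb8 were the ribosomal genes Rps9 (Pearson r = 0.974 on the log2 CPM scale) and Rpl37 (0.955), Erp29, of the endoplasmic reticulum (0.973), Clta, a clathrin light chain (0.962), and Otulin, a deubiquitinase (0.951), among 7104 genes. The sums share libraries, so these are descriptions. Among the members, Psmb9 ranked 16th (0.938), Psmd8 36th (0.924), Psmd4 37th (0.924), Psmb10 57th (0.916) and Psme1 98th (0.900). The catalytic counterpart Psmb5 ranked 1284th (0.762), and Psme4 had 0.399.

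Next, cells that the authors' phase calls put in S or G2M were compared with cells in G1 within the same cluster and library. The members are in neither gene list behind the phase calls. Raw UMIs were summed per library and phase and tested with edgeR's quasi-likelihood test, with the library as a block and Benjamini-Hochberg adjustment over all genes tested (FDR, threshold 0.05). In cluster 5 the S and G2M cells, 9.80% to 31.9% of a library's cells, held more of the constitutive proteasome. Of 48 members tested, 39 were higher and 2 lower, against 28.6% of 12141 genes called higher and 29.6% called lower, and the median log2 fold change was 0.52 over the members and -0.02 over all genes.

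All 7 alpha and all 7 beta subunits, all 6 ATPases, the 3 other base subunits, the 3 base chaperones and 7 of 8 lid subunits were called higher in cluster 5. The class medians were 0.77 for the ATPases, 0.64 for the lid, 0.52 for the beta and 0.48 for the alpha subunits. Psmc3 counted 136, 119.9 and 120.4 CPM in the S and G2M cells of the femur libraries and 153, 161 and 139 CPM in those of the mandible libraries. Its G1 cells counted 70.0, 63.5 and 71.0 CPM in the femur libraries and 65.9, 80.4 and 70.4 CPM in those of the mandible. The phases did not overlap, with a log2 fold change of 0.98 ± 0.06 (SE, FDR 2.38e-07). Psmb5 rose by 0.53 ± 0.06 (FDR 3.37e-05), Psmb6 by 0.68 ± 0.07 (FDR 1.44e-05) and Psmb7 by 0.60 ± 0.08 (FDR 6.21e-05), each higher in 6 of 6 libraries. The core chaperone Psmg2 rose by 1.49 ± 0.11 (FDR 9.51e-07), and the recombination factor Psmc3ip by 3.84 ± 0.26 (FDR 3.47e-07), from 0.877 CPM to 12.8 CPM.

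Of the 3 immunoproteasome subunits 1 was called. Psmb8 counted 194, 207.5, 200.3, 297, 301 and 265 CPM in the S and G2M cells (femur, then mandible replicates) and 235, 265, 232, 225, 237 and 226 CPM in the G1 cells. It was lower in the S and G2M cells of the 3 femur libraries and higher in those of the 3 mandible libraries, and its log2 fold change was 0.04 ± 0.10 (FDR 0.742). Psmb10 had -0.03 ± 0.09 (FDR 0.761). The one called was Psmb9, at 0.23 ± 0.08 (FDR 0.0311, higher in 4 of 6 libraries). The 2 members called lower were Psme4, which fell by 0.49 ± 0.06 on the log2 scale (FDR 5.86e-05, from 122 CPM to 85.7 CPM), and Psme2b, which fell by 0.80 ± 0.09 (FDR 2.76e-05). Psme1 had -0.09 ± 0.09 (FDR 0.384) and Psme2 0.15 ± 0.07 (FDR 0.0863), whereas Psme3 rose by 0.54 ± 0.09 (FDR 0.000313).

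Phase moved together with cell type in cluster 5. The precursor list Elane, Mpo, Prtn3 and Fcnb summed to a median of 949 CPM in S and G2M cells (348 to 1134 CPM) and 82.7 CPM in G1 cells (66.5 to 156 CPM), and the dendritic list Flt3, Cd209a, Siglech, H2-Aa and Cd74 to 844 CPM (437 to 1162 CPM) and 2741 CPM (1832 to 4618 CPM). The mature neutrophil list stood at 2238 CPM (954 to 3064 CPM) and 4757 CPM (2734 to 5968 CPM), the macrophage list at 155 CPM and 775 CPM with overlap, and the monocyte list at 2910 CPM and 2960 CPM. The S and G2M cells of Femur replicate 1 were shallow, with a median of 2086.5 UMIs per cell against 9511 UMIs in its G1 cells, whereas in the other 5 libraries the S and G2M cells were the deeper ones, at 14502.5 to 21679 UMIs against 7804 to 10273 UMIs. With monocyte-labelled cells alone, an alternative added after the data were seen, 36 of 48 members were higher and 3 lower (Psme4, Psme2b and Psme1), against 28.2% and 28.4% of 10176 genes, at a median of 0.39. In those cells the precursor list stood at 932 CPM and 59.4 CPM and the dendritic list at 189 CPM and 2837 CPM, so the difference in these lists remained. The immature neutrophil list stood at 6348 CPM (3284 to 14602 CPM) and 1277 CPM (633 to 3522 CPM), against 22962 CPM and 15055 CPM in all of cluster 5. The mature neutrophil list stood at 529 CPM (383 to 719 CPM) and 742 CPM (491 to 970 CPM), with overlap. The part of these markers in the result was not tested.

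**Figure D4:**
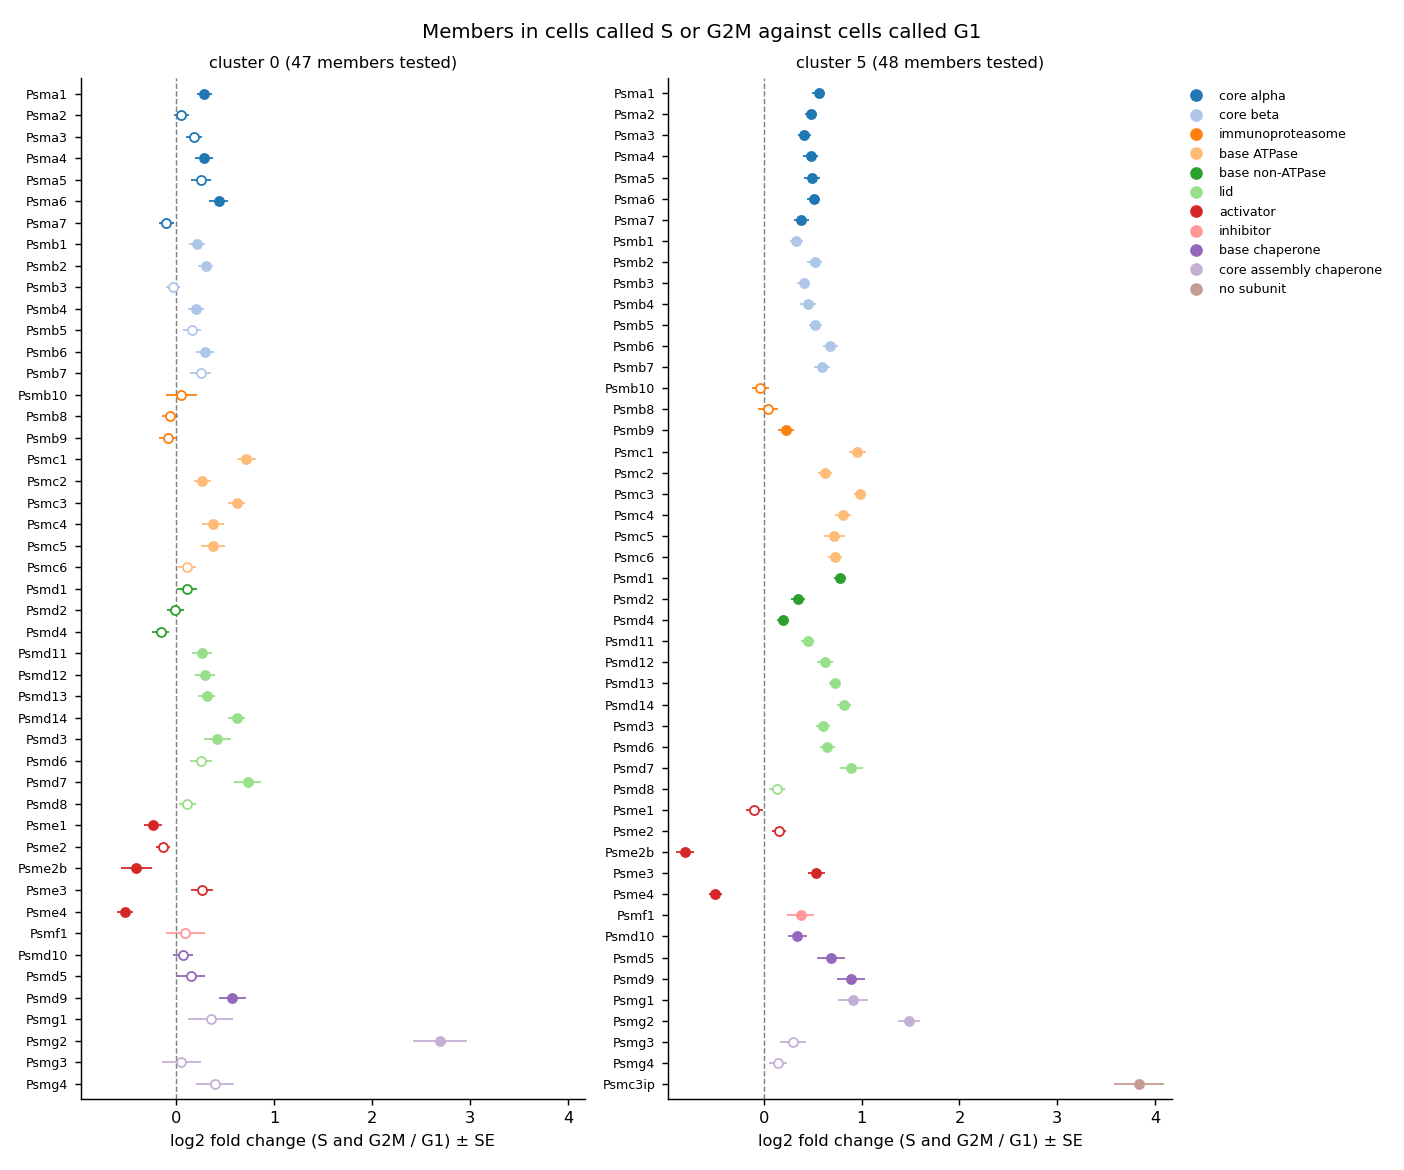
Log2 fold change of each member in S and G2M cells over G1 cells (horizontal axis, bars are SE) in clusters 0 and 5, coloured by class. Filled points have an FDR below 0.05 in edgeR's quasi-likelihood test, and in cluster 5 every alpha, beta and ATPase subunit is filled and to the right of 0, whereas Psmb8 and Psmb10 are open and near 0 and Psme4 and Psme2b are filled and to the left.

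In cluster 0, where S and G2M cells were 2.21% to 12.2% of a library, 20 of 47 members were higher and 3 lower, against 21.3% and 26.3% of 11058 genes, and the median was 0.25 over the members and -0.05 over all genes. Of the ATPases 5 of 6 were higher, and of the lid subunits 6 of 8, and the difference from cluster 5 was not tested. Psmg2 rose by 2.69 ± 0.28 (FDR 8.47e-07), from 1.04 CPM to 8.56 CPM. Psme4 fell by 0.53 ± 0.08 on the log2 scale (FDR 6.17e-05, lower in 6 of 6 libraries). Psme1 (-0.24, FDR 0.0377) and Psme2b (-0.41, FDR 0.0412) lost their calls with DESeq2 (adjusted p = 0.133 and 0.117). Leaving out any of the 6 libraries ended the call of Psme2b, and leaving out any library but Femur replicate 2 ended that of Psme1, which was lower by CPM in 3 of 6 libraries. The precursor list stood at a median of 666 CPM in S and G2M cells (473 to 773 CPM) and 232 CPM in G1 cells (162 to 339 CPM), and the mature neutrophil list at 3788 CPM and 8008 CPM, and their part in the result was not tested. The S and G2M cells of Femur replicate 1 were shallow here too, with a median of 1790 UMIs per cell. A plain mean over libraries of log2 CPM ratios, scaled to library totals and with 1 CPM added, was an alternative to the fitted values. Its median over all genes was 0.09 in this cluster, against -0.05 in the test, and over the members 0.42. This mean differs from the test in more than the scaling. None of the 3 immunoproteasome subunits was called. The count of members higher was 13 without Mandible replicate 2.

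Cluster 4 cells were nearly all in S or G2M (97.8% to 99.3%), which left 6 to 28 G1 cells per library. Here 3 of 48 members were higher (Psmb2, Psmg2 and Psmc3ip) and 0 lower, against 8.95% and 4.04% of 10158 genes. The plain mean of log2 CPM ratios described for cluster 0 gave a median of 0.37 over all genes here, against 0.06 in the test. Over the members it gave 0.26, against 0.20 in the test. DESeq2 called 1 of the 3, Psmc3ip. Without Femur replicate 3, and likewise without Mandible replicate 2, Psmb2 and Psmg2 lost their calls and 1 member was called, and without Mandible replicate 1 Psmb2 lost its call.

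The central comparison of the study is the skeletal site. No member was called between mandibular-derived and femur-derived cells in any of the 9 clusters or over all cells, by edgeR's quasi-likelihood test on UMIs summed per library and cluster at an FDR of 0.05. Few genes of any kind were called. The share of all genes called was 0.0163% in cluster 0, 0.0842% in cluster 1, 0.0416% in cluster 2, 0.0108% in cluster 3, 0.0245% in cluster 4, 0.0842% in cluster 7, and 0% in clusters 5, 6 and 8 and over all cells. At an unadjusted p below 0.05, members numbered 0 of 48 in cluster 0, 1 of 46 in cluster 1, 2 of 46 in cluster 2, 0 of 46 in cluster 3, 12 of 48 in cluster 4, 1 of 49 in cluster 5, 0 in clusters 6, 7 and 8, and 1 of 49 over all cells. The corresponding shares of all genes were 6.81%, 13.6%, 12.2%, 4.38%, 13%, 7.11%, 4.04%, 5.32%, 1.1% and 9.37%. DESeq2 called more genes, at 1.23% of those it gave an adjusted p in cluster 4 and 0.415%, 2.72%, 1.85%, 0.367%, 0.544%, 0%, 0.337% and 0.0786% in clusters 0 to 3 and 5 to 8, and 1.46% over all cells. It called 1 member, Psmb3 in cluster 4, and none in the other clusters or over all cells.

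The median of the members was above 0 in each cluster, without any member reaching the threshold. The median log2 fold change (mandible over femur) was 0.04 in cluster 0, between 0.09 and 0.13 in clusters 1 to 4, 0.16 in cluster 5, 0.23 in cluster 6, 0.03 in cluster 7, 0.20 in cluster 8 and 0.15 over all cells, where the median of all genes lay between -0.01 and 0.02. Positive values were held by 37 of 48 members in cluster 4 and by 42 of 49 in cluster 5. In cluster 4, 7 members were higher in every mandible library than in every femur library and 0 were lower, against 5.9% and 10.1% of all genes. In cluster 5 these were 13 and 0 members, against 7.32% and 4.29% of all genes, and in cluster 6 they were 9 and 0, against 6.22% and 3.01%. In cluster 0, 0 members were higher and 6 lower without overlap, against 2.47% and 8.63% of genes, at a median of 0.04. In cluster 1, 1 was higher and 3 were lower (4.88% and 16.9% of genes), in cluster 2, 3 and 1 (6.48% and 8.41%), in cluster 3, 5 and 1 (3.84% and 3.87%), in cluster 7, 0 and 1 (2.83% and 7.91%), in cluster 8, 0 and 0 (1.26% and 3.34%), and over all cells 2 and 0 (4.4% and 5.69%).

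Whether the libraries divided by site depended on the measure. The 50 members summed to 4016, 4227 and 4063 CPM in Femur replicates 1, 2 and 3 of cluster 5 and to 4238, 5201 and 4635 CPM in Mandible replicates 1, 2 and 3, without overlap, and the alpha, beta, ATPase and lid sums did not overlap there either. In cluster 4 the alpha and beta sums did not overlap, whereas the sum of all members did. On the scaled median, which counts every member alike and subtracts the median of all genes tested, the sites overlapped in cluster 5. The median over members of the log2 level relative to the femur mean in cluster 5 was -0.15, 0.00 and 0.16 in Femur replicates 1, 2 and 3, and -0.01, 0.32 and 0.12 in Mandible replicates 1, 2 and 3. Femur replicate 3 lay above Mandible replicates 1 and 3. In cluster 4 the values were -0.06, -0.04 and 0.07 for the femur and 0.04, 0.20 and 0.15 for the mandible. In clusters 1, 2 and 3 Femur replicate 3 stood at 0.31, 0.31 and 0.32, above every mandible library. The pooled SD within a site was 0.23, 0.23 and 0.22 there, larger than the site medians of 0.12, 0.11 and 0.09. Without Femur replicate 3 the site medians of these clusters were 0.26, 0.28 and 0.29, so they depended on that library.

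By role, the beta subunits of the core were the class with the largest median among those of 5 or more members in clusters 4 and 5. In cluster 5 all 7 were positive, with a median of 0.28, as were all 8 lid subunits (0.24) and all 7 alpha subunits (0.15). The ATPases had 0.24, the activators -0.08 and the immunoproteasome subunits 0.02. Psmb5 counted 77.3, 101.2 and 105.5 CPM in the femur libraries and 101.1, 150.1 and 131 CPM in those of the mandible of cluster 5. The sites overlapped through Mandible replicate 1, and the log2 fold change was 0.37 ± 0.22 (SE, FDR 0.75), the largest rise in this cluster among members at 10 CPM or more. Psmb3, a structural beta subunit, counted 147, 178 and 178 CPM in the femur libraries and 187, 248 and 224 CPM in those of the mandible, without overlap. Psma7, listed above, did not overlap either. The largest fall was that of Psme4, at -0.11 ± 0.13 (FDR 0.867).

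In cluster 4 the beta subunits had a median of 0.25 (6 of 7 positive), the alpha subunits 0.15 (7 of 7) and the lid 0.12 (6 of 8). Psmb3 counted 141, 149 and 144 CPM in the femur libraries and 168, 189 and 199 CPM in those of the mandible. Its sites did not overlap, and it had the lowest FDR of the members there, 0.232, at a log2 fold change of 0.39 ± 0.09. Psmb10 had the largest log2 fold change among members at 10 CPM or more, 0.42 ± 0.16 (FDR 0.318), with 14.5, 13.0 and 12.4 CPM in the femur libraries and 12.8, 17.4 and 22.1 CPM in those of the mandible. Its sites overlapped through Mandible replicate 1. Psmb5 had 0.33 ± 0.12, Psme2 0.34 ± 0.15, Psmb6 0.26 ± 0.10 and Psmb8 0.21 ± 0.10, with FDRs of 0.327, 0.384, 0.325 and 0.418. The largest fall was that of Psmd2, a scaffold of the base, at -0.12 ± 0.10 (FDR 0.627).

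In the remaining clusters the largest rise and the largest fall among members at 10 CPM or more were Psmb3 (0.29 ± 0.15) and Psma5 (-0.22 ± 0.14) in cluster 0, Psmb6 (0.51 ± 0.30) and Psmb8 (-0.22 ± 0.20) in cluster 1, Psme3 (0.48 ± 0.16) and Psmc6 (-0.20 ± 0.13) in cluster 2, and Psmb3 (0.33 ± 0.21) and Psma5 (-0.21 ± 0.21) in cluster 3. The Psmb8 value of cluster 1 rested on Femur replicate 3, at 127.6 CPM, and without it was 0.02. Psme3 in cluster 2 did not overlap between sites, with 13.5, 12.4 and 9.96 CPM in the femur libraries and 16.5, 16.8 and 15.1 CPM in those of the mandible (FDR 0.265). In the small clusters they were Psmc3ip (0.81 ± 0.49) and Psmg3 (-0.20 ± 0.33) in cluster 6, Psme3 (0.61 ± 0.35) and Psma5 (-0.68 ± 0.49) in cluster 7, and Psmd11 (0.90 ± 0.58) and Psme1 (-0.50 ± 0.50) in cluster 8. Over all cells they were Psmb10 (0.49 ± 0.20, FDR 0.501) and Psmc6 (-0.10 ± 0.15), and there the mix of clusters entered too.

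**Figure D5:**
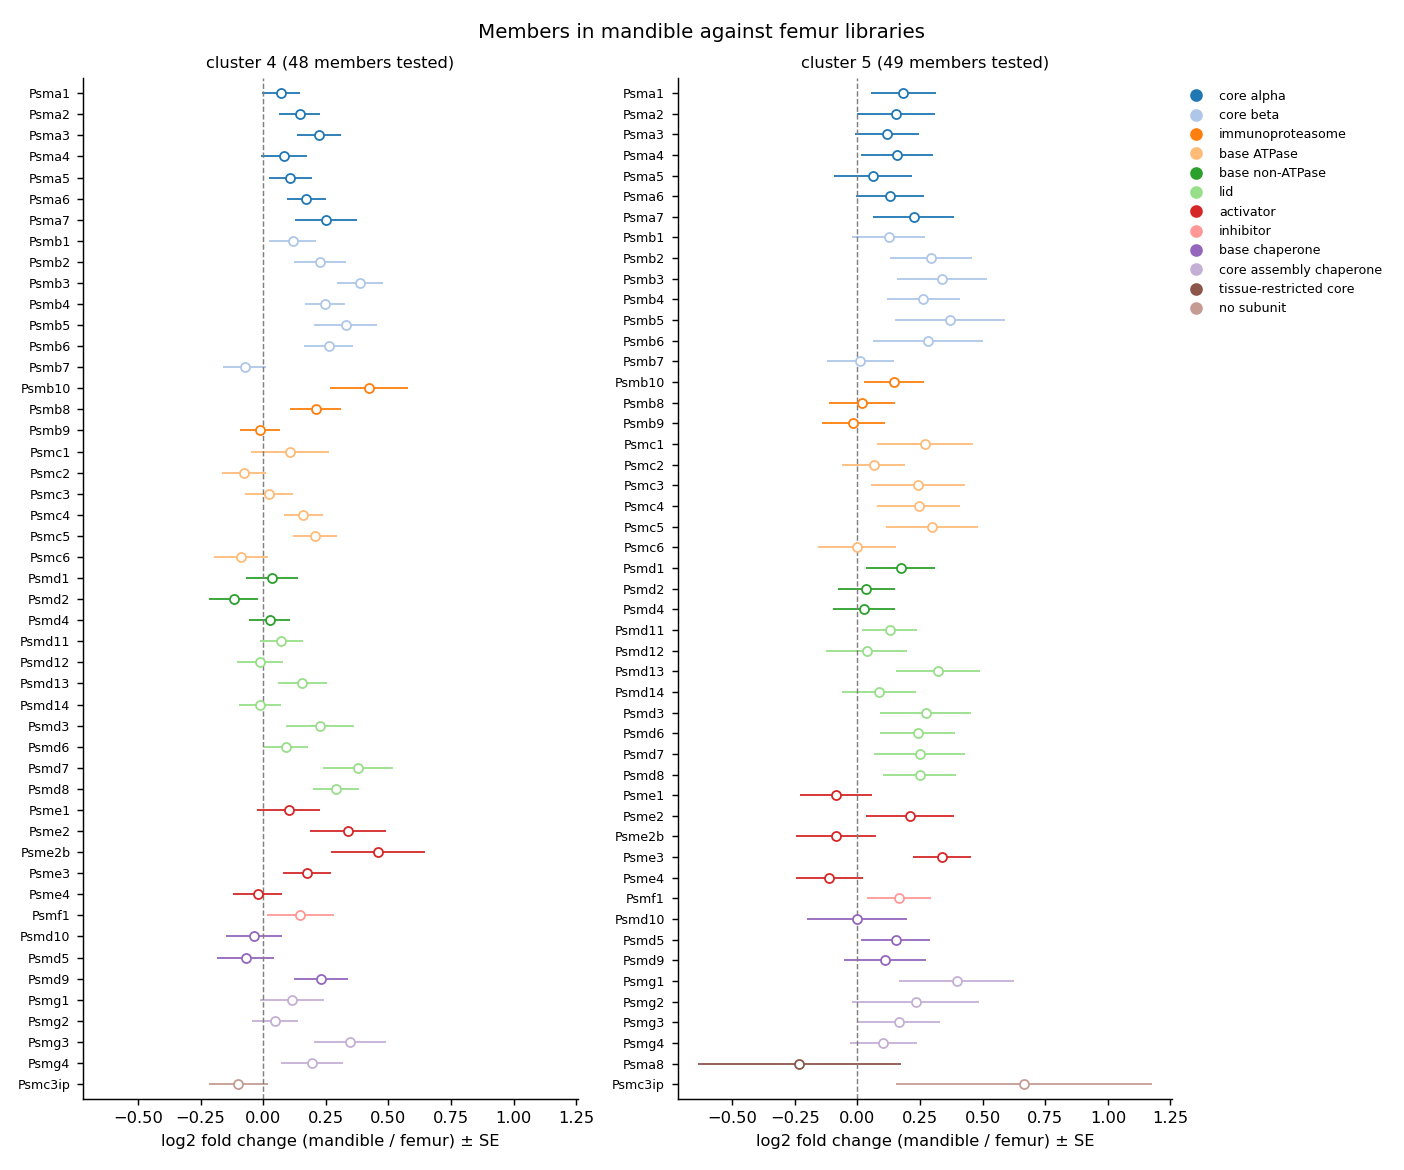
Log2 fold change of each member in mandible over femur libraries (horizontal axis, bars are SE) in clusters 4 and 5, coloured by class. All points are open since no member had an FDR below 0.05, and most lie to the right of 0, where 37 of 48 members in cluster 4 and 42 of 49 in cluster 5 are positive.

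The share of S and G2M cells in cluster 5 was 14.7%, 9.80% and 16.0% in the femur and 9.87%, 31.9% and 20.4% in the mandible libraries. Mandible replicate 2 was highest both in this share and in the sum of the members, while Femur replicate 3 followed both Mandible replicates 2 and 3 in this share and was above Femur replicate 1 alone in the sum. With G1 cells of cluster 5 alone, an alternative added after the data were seen, the median over 47 members was 0.05 in place of 0.16, 34 were positive, and 0 were called and 0 had an unadjusted p below 0.05, against 0.00779% and 5.83% of 12831 genes. With monocyte-labelled cells alone the median over 48 members was 0.19, 43 were positive, 0 were called and 2 had an unadjusted p below 0.05, against 0.0968% and 13.2% of 11364 genes. The part of phase in the site values of cluster 5 was not tested. The site effect did not differ detectably between clusters 5 and 0: in limma's test of the difference 0 of 48 members were called (0% of 11741 genes). An unadjusted p below 0.05 was held by 3 of the 48 members and by 1211 of the 11741 genes. For 43 of the 48 members the log2 fold change between sites was higher in cluster 5 than in cluster 0. The median difference was 0.15 on the log2 scale over all 48 and -0.01 over all genes tested.

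Other cell types moved with the site in cluster 5. The dendritic list averaged 3105 CPM in the femur libraries and 1779 CPM in those of the mandible, the erythroid list 377 CPM and 1017 CPM, the ameloblast list 0.311 CPM and 471 CPM (15.6 to 1316 CPM in the mandible libraries) and the odontoblast or bone list was higher in the mandible too, each without overlap. Of the 5 dendritic genes 2 were higher in the mandible, and the median log2 fold change of the list was -0.15. Of the 4 neutrophil precursor genes 3 were higher in the mandible, at a median of 1.21, and 0 had an unadjusted p below 0.05. The macrophage list averaged 1149 CPM and 533 CPM with overlap. In cluster 0 both of the 2 genes called between sites were ameloblast genes, and in cluster 4 so was 1 of 3. The B-lineage list averaged 26.2 CPM and 48.8 CPM with overlap, and 3 of its 4 genes tested had an unadjusted p below 0.05. In cluster 4, where 12 members had an unadjusted p below 0.05, so did 4 of 4 neutrophil precursor genes (a mean of 3148 CPM for femur and 4084 CPM for mandible libraries, with overlap), 3 of 3 erythroid genes (17.6 CPM and 91.4 CPM, with overlap), 3 of 3 B-lineage genes (4.27 CPM and 14.3 CPM, without overlap) and 1 of 2 T or NK genes (87.3 CPM and 122 CPM, without overlap). Of the 4 neutrophil precursor genes in cluster 4, 3 had a positive log2 fold change. The part of these cell types or of their RNA in the members' values was not tested.

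The immunoproteasome shares were compared between sites by a 2-sided exact permutation test over all 20 assignments of the 6 libraries, whose smallest possible p is 0.10, for 27 pairs of subunit and cluster. No comparison could reach 0.05, and the lowest Benjamini-Hochberg adjusted p was 0.45. The Psmb8 share was lower in the mandible mean in 9 of 9 clusters, the Psmb9 share in 8 of 9 and the Psmb10 share in 1 of 9. A share can fall through a rise of the counterpart as well as through a fall of the subunit. The immunoproteasome subunits themselves had a median site log2 fold change below 0 in clusters 1 (-0.10), 2 (-0.07) and 8 (-0.35, 1 member tested). In the other clusters it was above 0, with 0.21 in cluster 4 and 0.29 in cluster 6. The sites did not overlap in 6 of the 27 pairs, each lower in the mandible, namely Psmb8 in clusters 1 and 2, Psmb9 in clusters 1, 2 and 4 and Psmb10 in cluster 8. In cluster 1 the Psmb8 share was 72.6% ± 1.94 (SD, n = 3) in the femur and 66.2% ± 3.09 in the mandible (exact permutation p = 0.10), with the values per library given above. In cluster 2 it was 68.0%, 71.3% and 64.2% in the femur and 61.0%, 55.4% and 60.5% in the mandible libraries. Neutrophil and monocyte lists also differed between the sites in these clusters. Ltf, Ngp and Camp summed to 2619, 1386 and 3851 CPM in the femur libraries of cluster 1 and to 4053, 10743 and 4982 CPM in its mandible libraries, and averaged 5939.5 CPM and 12488 CPM in cluster 2, without overlap in either, and 3 of 3 genes had an unadjusted p below 0.05 in both. The mature neutrophil list averaged 20681 CPM for femur and 25375 CPM for mandible libraries of cluster 1, without overlap, and the monocyte list 383 CPM and 568 CPM, without overlap, with an unadjusted p below 0.05 for 4 of 4 and 3 of 4 genes. In cluster 2 these lists averaged 27962 CPM and 29914 CPM, with overlap, and 611 CPM and 792 CPM, without overlap, with such a p for 3 of 4 and 2 of 4 genes. Of the 4 mature neutrophil genes, 2 had a positive log2 fold change in cluster 1 and 2 in cluster 2. Their medians were 0.13 and -0.19, so the higher sums did not hold for each gene. The part of these differences in the shares was not tested. The clusters of a library are not independent of each other, so 9 of 9 is not a count of 9 experiments.

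Related genes of the pathway were read from lists. No gene was called between sites in any cluster among the 8 proteasome-associated genes and regulators, the 5 ubiquitin genes and the 8 genes of class I peptide handling. Their medians in cluster 5 were 0.09, 0.10 and -0.29, and 0 genes of these lists had an unadjusted p below 0.05 there. In other clusters some did, namely 2, 2, 1 and 1 class I genes in clusters 0, 1, 2 and 3, and 1 ubiquitin gene in each of clusters 0 and 4. DESeq2 was not used to count these lists.

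In S and G2M cells of cluster 5, 7 of 8 class I genes were called lower than in G1 cells, at a median log2 fold change of -0.58, against 29.6% of all genes called lower, and the dendritic list was lower in the same cells, at the values given above. Of the 8 proteasome-associated genes 3 were higher and 3 lower, and of the ubiquitin genes 2 of 5 were higher and 1 lower, against 28.6% of all genes called higher. None of Psmb8, Psmb9 and Psmb10 was called lower.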

How the data were processed

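The data were 10x 3′ single-cell RNA-seq libraries, 3 per site. Reads were aligned to mm10 with Cell Ranger (7.0.1 per the labels, while the file headers name another release), and whether counting used strand is not given in the sources used here. The authors deposited raw UMI counts per gene and barcode, and a metadata table of the cells they kept, with clusters, phase calls, reference labels and the percent of mitochondrial UMIs per cell, all made in Seurat. A table of the authors' own fold changes and p-values was not used. No doublet step was stated, and none was added.

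Counts were summed per library and cluster (and phase) and tested with edgeR 4.0.16 (TMM factors, filterByExpr, quasi-likelihood test) in R 4.3.3, with limma 3.58.1 for the difference between clusters, DESeq2 1.42.0 as an alternative and Python 3.11.15 for shares and descriptions. FDRs are Benjamini-Hochberg over all genes tested. Kept cells held 82962160 to 244946998 UMIs per library. The quasi-likelihood test was checked on simulated counts in the form used between sites, without a block. Members, gene lists and tests were chosen with earlier results of these data known. Named with values were the immunoproteasome subunits and their counterparts, Psme1 and Psme2, members called, and in each cluster the largest rise and fall between sites among members at a mean of 10 CPM or more. Other members named (class extremes, Psme4, Psma7, Psmb3, Psmg2 and the like) were chosen after their values were seen. Alternatives were other size factors, no filter, DESeq2, replicate blocks, leaving out each library and other forms of the share. The site comparisons carry no replicate block, and fits with one were alternatives. One further gene list is not reported here.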

Additional observations from a re-analysis of the deposited data

How the results depend on the processing

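Site calls stayed at 0 members except with DESeq2 in cluster 4 (1, Psmb3, adjusted p = 0.0166) and with a replicate block on the library number, which kept 4 libraries in 2 pairs, in cluster 1 (1, Psmd14, FDR 0.0401) and cluster 2 (1, Psme3, FDR 0.00684). Over all genes these 2 fits called 1587 in cluster 1 and 1268 in cluster 2, against 9 and 4 in the main fits. What the library numbers stand for was not given. In clusters 0 to 3 the deviations of libraries with the same library number correlated across genes at r = 0.29 to 0.50, and those with the same replicate number in the titles at r = -0.40 to 0.18, so the 2 library-number pairs deviated together there, which is a hint from the data and not from the design. Between phases, members called higher in cluster 0 numbered 13 without a filter and 13 to 25 on leaving out 1 library, and members called lower 1 with DESeq2, 1 with relative log expression factors, 1 with no replicate block and 1 to 2 on leaving out 1 library. In cluster 4, 1 was called higher with DESeq2 and 1 to 4 on leaving out 1 library. In cluster 5 the counts were 37 to 42 higher and 2 lower. The cause was not tested.

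Differences in share (mandible minus femur, percentage points) changed sign when taken as a ratio to the mean of the core alpha subunits for Psmb8 in clusters 4 (2.20) and 6 (1.72), Psmb9 in clusters 0 (2.00) and 6 (1.04) and Psmb10 in clusters 1 (-2.81) and 5 (-1.15), and with each cell counted alike for Psmb10 in clusters 1 (-1.17) and 7 (-1.58). Leaving out 1 library gave -2.83 to 0.932, -5.88 to 0.530 and -3.13 to 3.23 for Psmb9 in clusters 0, 3 and 6, and -1.29 to 2.72, -1.55 to 4.33 and -0.00579 to 5.17 for Psmb10 in clusters 1, 2 and 3. The site log2 fold changes became -0.37 to 0.018 for Psmb8 in cluster 1, -0.17 to 0.0062 for Psme4 in cluster 5, -0.50 to 0.0040 for Psmg3 in cluster 6 and -0.21 to 0.018 for Psmc6 over all cells. With 3 libraries per site, and as few as 11 cells of cluster 8 in a library, small differences may have been missed.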
